A study of Homo sapiens with 6 samples.

Results

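HOX gene signal was described in TPC-1, a human cell line of papillary thyroid carcinoma, in cells given siRNA to SMAD3 (si-SMAD3) and in cells given control siRNA (si-Control). SMAD3 is a transcription factor that carries TGF-beta signals to the nucleus. Members were all genes with a symbol of HOXA, HOXB, HOXC or HOXD and a number from 1 to 13 for which the array's annotation names a probe set with that symbol alone. This gave 23 of the 33458 singly named genes on the array. They are 23 of the 39 human HOX genes in RefSeq, with 1 of 11 in the HOXA cluster (HOXA2), 8 of 10 in HOXB, 6 of 9 in HOXC and 8 of 9 in HOXD. The other 16 were not analysed here, so the HOXA cluster is represented by a single gene. A gene with more than 1 probe set was taken from the brighter one, and no filter on level was used to choose members.

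There were 3 si-SMAD3 arrays and 3 si-Control arrays, and the experiment was repeated on 3 occasions to give them. All cells received 25 pmol of siRNA by lipid transfection and were taken after 24 h, and neither group was left untransfected. Both groups come from 1 cell line. Values are log2 values that the authors made with RMA, which equalizes the distributions of the arrays. SMAD3, the knocked-down gene, was at 10.58, 10.03 and 10.27 in the si-SMAD3 arrays, against 14.20, 14.21 and 14.67 in the si-Control arrays. The difference was -4.06 (SE 0.22, adjusted p = 0.000437 by limma over 20590 genes, n = 3 each). Of 7 thyroid markers, PAX8 and FOXE1 lay above the 75th percentile of all probe sets on all 6 arrays, and HHEX, NKX2-1, TG, TSHR and SLC5A5 did not. Of 5 epithelial markers KRT8 and KRT18 lay above it on all 6 arrays and KRT19 on 1, while EPCAM and CDH1 were below the array median on all 6. EPCAM, at that low level, was at 3.82, 3.77 and 3.84 in si-SMAD3, against 3.17, 3.20 and 3.03 in si-Control. The si-SMAD3 arrays were all above the si-Control arrays in this way in 5.46% of all genes. EPCAM was too low to enter the test described below, and in a fit of all 33458 genes its adjusted p was 0.722 by limma. Of 5 endothelial markers none lay above the 75th percentile on all 6 arrays. Of 4 immune markers 1 did (CD68), and of 7 fibroblast markers 3 did (COL1A1, COL1A2 and LUM).

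HOX genes encode transcription factors with a homeodomain, a DNA-binding fold, that give cells their identity along the head-to-tail axis of the embryo. They lie in 4 clusters on different chromosomes, and in each cluster the order of the genes follows the order in which they are used along the axis, from low numbers in front to high numbers behind. Genes with the same number in different clusters are paralogs. Polycomb proteins keep HOX clusters silent, Trithorax group proteins keep them active, and PBX and MEIS proteins bind DNA together with HOX proteins. In the mouse Hoxa3 is needed for normal thyroid development.

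HOX signal was low in the 23 members, which leave out most of the HOXA cluster. None of the 23 genes lay above the 75th percentile of its array on all 6 arrays, whereas 35.6% of the 33458 genes did. That percentile lay between 5.39 and 5.41. Against the lower mark of each array's median, which lay between 3.94 and 3.96, 4 of the 23 were above it on all 6 arrays, 11 were below it on all 6, and 8 were on different sides on different arrays. The 4 were HOXB6, HOXB7, HOXD3 and HOXD12. Over all genes 52.5% lay above the median on all arrays. The members' means over the 6 arrays ran from 2.996 for HOXB13 to 5.38 for HOXD3, with a median of 3.55, while the median of all genes was 4.48. In a bulk sample fewer cells that express a gene and less RNA per cell cannot be told apart.

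These marks place each probe set within its own array. Probe sets differ in how strongly they respond, so values of different genes are not amounts of transcript and are not ranked as such. A low value can come from an absent transcript or from a weak probe set, and which of these held for a given HOX gene was not tested. The control probe sets for background, grouped by the GC count in their IDs, lay between 2.43 and 3.56 at GC counts of 10 to 25 and between 6.06 and 8.39 at GC counts of 3 to 5. The base composition of the HOX probes was not used here, so no member was set against a background of matched composition.

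**Figure D1:**
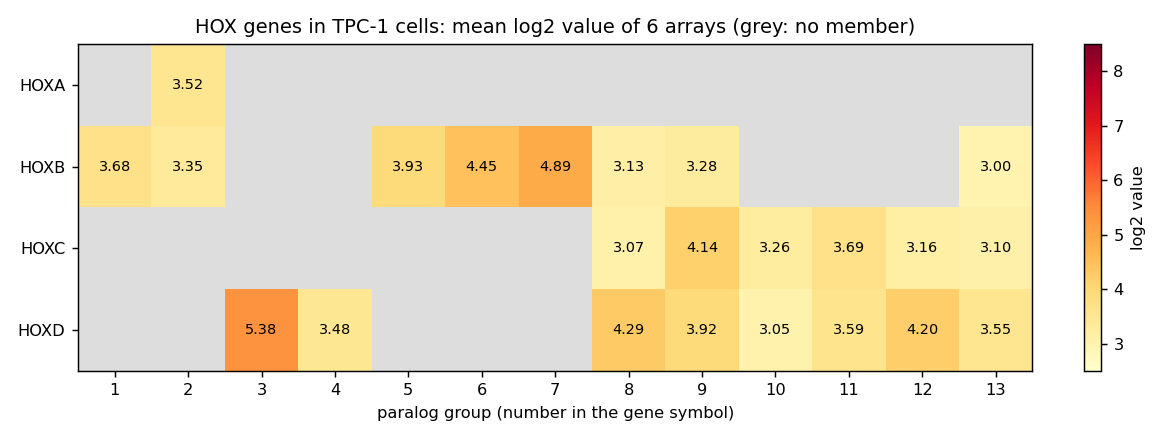
Mean log2 value over all 6 arrays for each of the 23 HOX genes, with the clusters in rows and the paralog number in columns, and grey where there is no member. HOXD3 is at 5.38 and HOXB7 at 4.89, and the other genes lie between 2.996 and 4.45.

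HOXD3, which in endothelial cells is known to raise integrin expression, was the only one of the 23 HOX genes with any value above the 75th percentile. Its values were 5.54, 5.60 and 5.48 in the si-SMAD3 arrays, against 4.76, 5.46 and 5.46 in the si-Control arrays. It was above that mark on 5 of the 6 arrays, and the si-Control replicate 1 array was the low one. The groups did not overlap, and the difference was 0.32 (SE 0.23, 95% interval -0.20 to 0.83, adjusted p = 0.941 by limma). The lowest si-SMAD3 value and the highest si-Control value were only 0.026 apart in experiment 3, and without the si-Control replicate 1 array the difference was 0.08. A further HOXD3 probe set, at 3.27, 3.41 and 2.97 in si-SMAD3 and 3.25, 3.53 and 3.11 in si-Control, was below the array median on all 6 arrays and differed by -0.08. The pair of probe sets therefore gave different levels and opposite signs. HOXD3 and HOXD4 overlap in RefSeq's annotation, and whether signal from one reached a probe set of the other was not tested.

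Among the 8 HOXB members the central genes HOXB6 and HOXB7 stood above the median and the rest mostly below. A probe set shared by a pair of HOXB genes and a microRNA gene, described at the end, was also above it on all 6 arrays. HOXB7, which is often studied in carcinoma cells, was at 5.13, 4.54 and 4.62 in si-SMAD3, against 5.36, 4.70 and 4.96 in si-Control. It was lower with si-SMAD3 in all 3 experiments, with differences of -0.23, -0.16 and -0.35, but the groups overlapped widely. The difference was -0.24 (SE 0.24, 95% interval -0.79 to 0.31, adjusted p = 0.968 by limma). HOXB6 was at 4.50, 4.44 and 4.21 in si-SMAD3, against 4.43, 4.33 and 4.76 in si-Control, a difference of -0.12 (SE 0.20) that was below 0 in experiment 3 alone. HOXB5, next to HOXB6, sat at the array median, with a mean of 3.93 in all 6 arrays. HOXB1, which sets hindbrain identity, HOXB2, HOXB8, HOXB9 and HOXB13, a gene of prostate and hindgut, had means between 2.996 and 3.68.

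Of the 6 HOXC genes only HOXC9, which marks thoracic identity in spinal motor neurons, had a mean above 4. It was at 3.65, 4.30 and 4.20 in si-SMAD3, against 4.03, 4.61 and 4.08 in si-Control. The highest values were those of the replicate 2 arrays in both groups, and the difference was -0.19 (SE 0.25, adjusted p = 0.985 by limma). HOXC8, HOXC10, HOXC11, HOXC12 and HOXC13, a gene of hair and nail formation, had means between 3.07 and 3.69. No HOXC gene was above its array's median on all 6 arrays.

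In the HOXD cluster HOXD12 was above the array median on all 6 arrays and HOXD8 on 5. HOXD12 was at 4.05, 4.09 and 4.41 in si-SMAD3, against 3.99, 4.04 and 4.61 in si-Control, with both replicate 3 arrays the highest. HOXD8 was at 4.80, 3.89 and 4.25 in si-SMAD3, against 4.31, 4.32 and 4.19 in si-Control. Its si-SMAD3 arrays lay on both sides of the si-Control arrays, with an SD of 0.46 in si-SMAD3 and 0.07 in si-Control (n = 3 each). HOXD9 had a mean of 3.92. HOXD4, HOXD10, HOXD11 and HOXD13, of which the last 3 pattern the limbs, had means between 3.05 and 3.59. HOXA2, the gene that gives the second pharyngeal arch its identity, varied most between arrays. It was at 3.08, 3.79 and 4.44 in si-SMAD3, against 3.09, 2.85 and 3.89 in si-Control, so both replicate 3 arrays were the highest of their group.

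**Figure D2:**
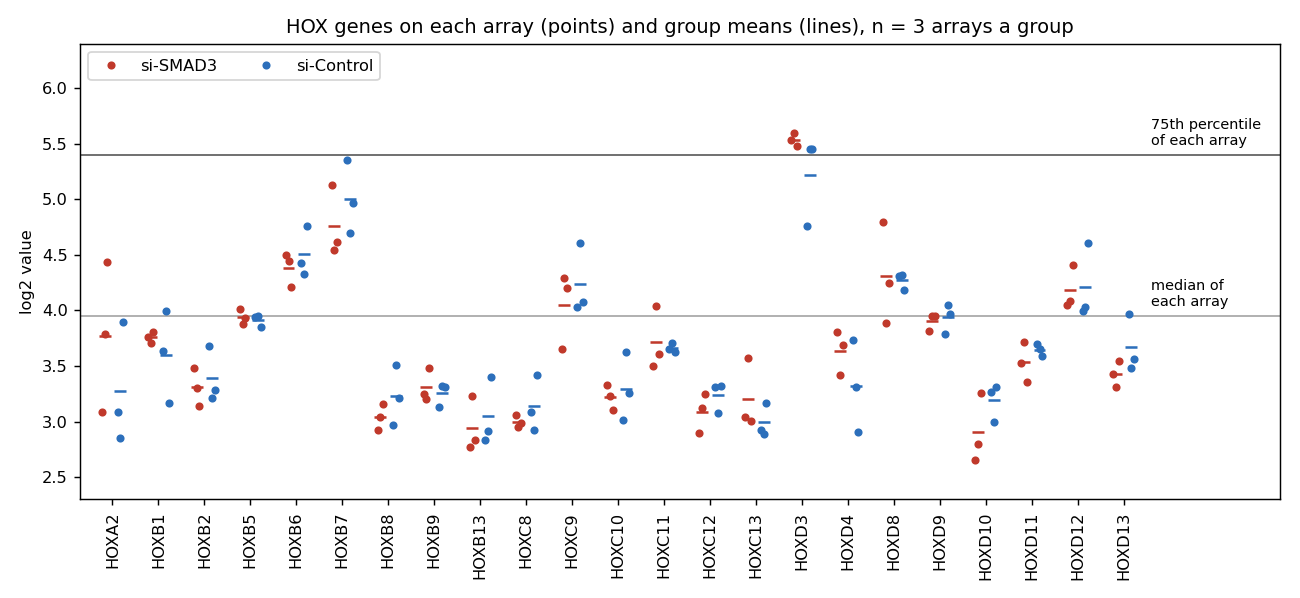
Log2 value of each HOX gene on each array (points) with the group means (short lines), si-SMAD3 in red to the left and si-Control in blue to the right, n = 3 arrays a group. Only HOXD3 has points above the line at the 75th percentile of the arrays, and in every gene but HOXD3 the groups overlap.

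No HOX gene was called as changed between si-SMAD3 and si-Control. Only genes with a mean at or above 3.93, the median over all probe sets, entered the test, and 6 of the 23 members did (HOXB6, HOXB7, HOXC9, HOXD3, HOXD8 and HOXD12). HOXB5 and HOXD9 lay just below that mark, and HOXC9, with a mean of 4.14, was the lowest above it. None of the 6 had an adjusted p at or below 0.05 by limma, with values from 0.941 to 0.999, and over all 20590 tested genes 0.00486% were called. That share is 1 gene, SMAD3 itself, so the absence of a call does not set HOX genes apart from other genes. None of the 6 had an unadjusted p under 0.05, against 5.74% of all tested genes. Without the filter on level, none of the 23 had an unadjusted p under 0.05 by limma, against 5.39% of all 33458 genes, and the smallest of the 23 was 0.182. With experiment as a block the adjusted p of the 6 lay between 0.833 and 0.990. In a fit with that block and no filter, chosen after seeing the data, HOXA2 had an SE of 0.22. Its unadjusted p there was 0.0597 and its adjusted p 0.809 by limma.

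Differences of the 23 genes lay on both sides of 0. There were 9 above and 14 below it, with a median of -0.08, while 52.0% of all 33458 genes lay above 0 with a median of 0.01. The median size of the difference, sign aside, was 0.15 among HOX genes and 0.15 among all genes. By cluster the count above 0 was 3 of 8 in HOXB, 2 of 6 in HOXC and 3 of 8 in HOXD, and HOXA2 was above 0. HOXD3 alone had si-SMAD3 arrays all above its si-Control arrays, against 5.46% of all genes, and 0 members had them all below, against 5.15%. The sign was the same in all 3 experiments for 6 members: higher for HOXD3 and HOXD4, lower for HOXB7, HOXB8, HOXD10 and HOXD13. Over all 33458 genes 13.8% were higher in all 3 experiments and 12.8% were lower in all 3, and the members' 2 and 4 of 23 are read against those shares.

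Values of 4 of these members follow as a description. HOXD4 was at 3.80, 3.42 and 3.69 in si-SMAD3, against 3.73, 3.31 and 2.90 in si-Control, and it was below the array median on all 6 arrays. HOXD10 was at 2.65, 2.80 and 3.25 in si-SMAD3, against 3.27, 2.99 and 3.31 in si-Control, with only the si-SMAD3 replicate 3 array inside the si-Control range. HOXD13 was at 3.42, 3.31 and 3.54 in si-SMAD3, against 3.97, 3.48 and 3.56 in si-Control. In HOXD13 the step was -0.54 in experiment 1 and -0.02 in experiment 3. HOXB8, the known target of miR-196a, was at 2.92, 3.04 and 3.16 in si-SMAD3, against 2.97, 3.51 and 3.21 in si-Control, so that only experiment 2 showed a step of size. HOXB8, HOXD4, HOXD10 and HOXD13 were not tested with adjustment, since their means lay below the filter.

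The arrays limited what could be seen. The largest difference was that of HOXA2, 0.49 (SE 0.37, 95% interval -0.35 to 1.33), which was -0.003, 0.94 and 0.55 in the 3 experiments. It was 0.16 without si-SMAD3 replicate 3 and 0.28 without si-Control replicate 2, against 0.84 without si-SMAD3 replicate 1 and 0.80 without si-Control replicate 3, so its size and its place among the 23 rest on single arrays. HOXD4 differed by 0.32 (SE 0.23), of which 0.79 came in experiment 3, and HOXD10 by -0.29 (SE 0.20), with -0.62 in experiment 1. The 95% intervals of the 23 differences together reached from -0.79 to 1.33 on the log2 scale, and those of the 6 tested genes from -0.79 to 0.83. Each gene's own interval sets what 3 arrays a group could show for it, and near the array's floor a log2 difference can understate a change in transcript. The mean over the 23 genes was 3.65, 3.70 and 3.73 in the si-SMAD3 arrays, against 3.68, 3.69 and 3.75 in the si-Control arrays.

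**Figure D3:**
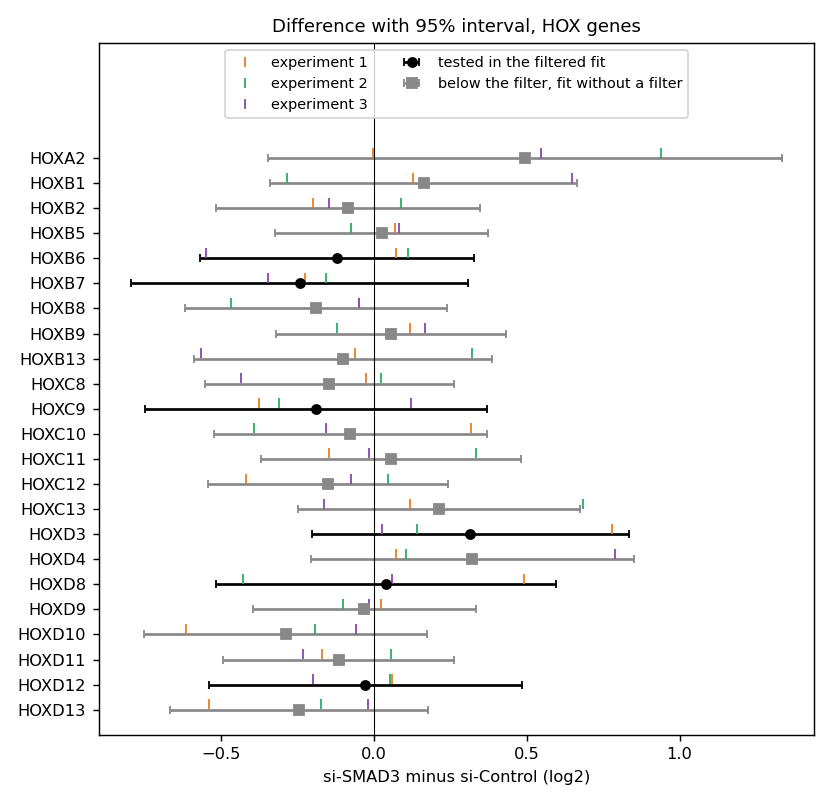
Difference of each HOX gene (si-SMAD3 minus si-Control, log2) with its 95% interval, circles for the 6 genes tested and squares for the 17 below the filter, and ticks for the 3 experiments. Every interval crosses 0, and HOXA2 has the widest.

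The noncoding genes inside the clusters were low as well. Of 26 listed noncoding RNA and PRAC genes 23 had a singly named probe set, none lay above the 75th percentile on all 6 arrays, and 15 lay below the array median on all 6. HOTAIR, a long noncoding RNA of the HOXC cluster, had a mean of 2.98, and HOTTIP, of the HOXA cluster, 2.63. Of the 7 tested none was called by limma (smallest adjusted p = 0.909), and none had an unadjusted p under 0.05. HOXD-AS2 was at 4.86, 4.36 and 4.74 in si-SMAD3, against 5.02, 4.87 and 5.09 in si-Control, a difference of -0.34 (SE 0.20) with groups that were barely apart. The si-SMAD3 arrays were all below the si-Control arrays in 2 of the 23, HOXD-AS2 and MIR615, against 5.15% of all genes. They were all above in 0 of the 23, against 5.46%. HOXB-AS4 differed by -0.41 (SE 0.25) and HAGLROS by -0.22 (SE 0.23), each with experiment 3 in the other direction.

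MIR196A1, a microRNA gene between HOXB9 and HOXB13, was the only one of the 23 noncoding RNA and PRAC genes with any value above the 75th percentile. MIR196A1 and MIR196A2, between HOXC10 and HOXC9, give the same mature microRNA, miR-196a-5p, which is known to act on HOXB8 mRNA. Their sequences are shown because the loci have separate probe sets with different values, while their mature product is the same. In the mature sequence the capitals mark the seed, bases 2 to 8; in the hairpins they mark the miR-196a-5p arm. All are from RefSeq, GRCh38.p14, written 5′ to 3′; MIR196A1 lies at chr17:48632490-48632559 on the minus strand and MIR196A2 at chr12:53991738-53991847 on the plus strand.
hsa-miR-196a-5p: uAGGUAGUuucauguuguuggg
MIR196A1 hairpin: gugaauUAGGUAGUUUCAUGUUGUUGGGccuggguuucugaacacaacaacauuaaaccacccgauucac
MIR196A2 hairpin: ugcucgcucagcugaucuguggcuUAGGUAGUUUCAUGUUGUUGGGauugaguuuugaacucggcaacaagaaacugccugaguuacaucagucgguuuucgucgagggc

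MIR196A1 was at 5.31, 5.73 and 6.17 in the si-SMAD3 arrays, against 6.31, 5.57 and 6.07 in the si-Control arrays. It lay above the 75th percentile on 5 of 6 arrays, with the si-SMAD3 replicate 1 array the exception. The difference was -0.25 (SE 0.28), with -1.01 in experiment 1 and 0.16 and 0.10 in the others. MIR196A2 was at 3.06, 3.39 and 3.31 in si-SMAD3, against 2.92, 3.44 and 3.17 in si-Control, and was below the array median on all 6 arrays. Which RNA gave the MIR196A1 signal, a precursor or a transcript that runs through the hairpin, was not tested. MIR10B in HOXD and MIR615 in HOXC had means of 3.13 and 3.38, both below the array median on all 6 arrays.

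Most of the listed genes that flank the clusters had high signal, while EVX1, EVX2 and SKAP1 were low. Genes directly next to a cluster were found at both levels, with SKAP2, CALCOCO1, SMUG1 and MTX2 among the high ones. Next to the HOXA cluster SKAP2, which encodes an adaptor of integrin signalling, had a mean of 10.26. HIBADH, an enzyme of valine breakdown on the other side of HOXA with EVX1 between, was at 10.58. At HOXC the flanking genes were CALCOCO1 (mean 9.65) and the uracil-DNA glycosylase gene SMUG1 (7.64), and at HOXD the mitochondrial import gene MTX2 (9.36) and, past EVX2, LNPK (10.19). HOXB had a low neighbour in SKAP1 (3.85) and, past 1 other protein-coding gene, a high one in CALCOCO2 (11.81). The homeobox genes EVX1 and EVX2, which sit at the end of HOXA and HOXD next to the group 13 genes, had means of 3.17 and 3.98. Together with the ParaHox genes PDX1, CDX1, CDX2, CDX4, GSX1 and GSX2, 16 such genes were on the array, 7 lay above the 75th percentile on all 6 arrays and 10 were tested. None was called by limma, none had an unadjusted p under 0.05, and the smallest p belonged to EVX2 (0.28, SE 0.21), MTX2 (0.20), GSX1 (0.20) and SMUG1 (0.18), given here by their differences.

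**Figure D4:**
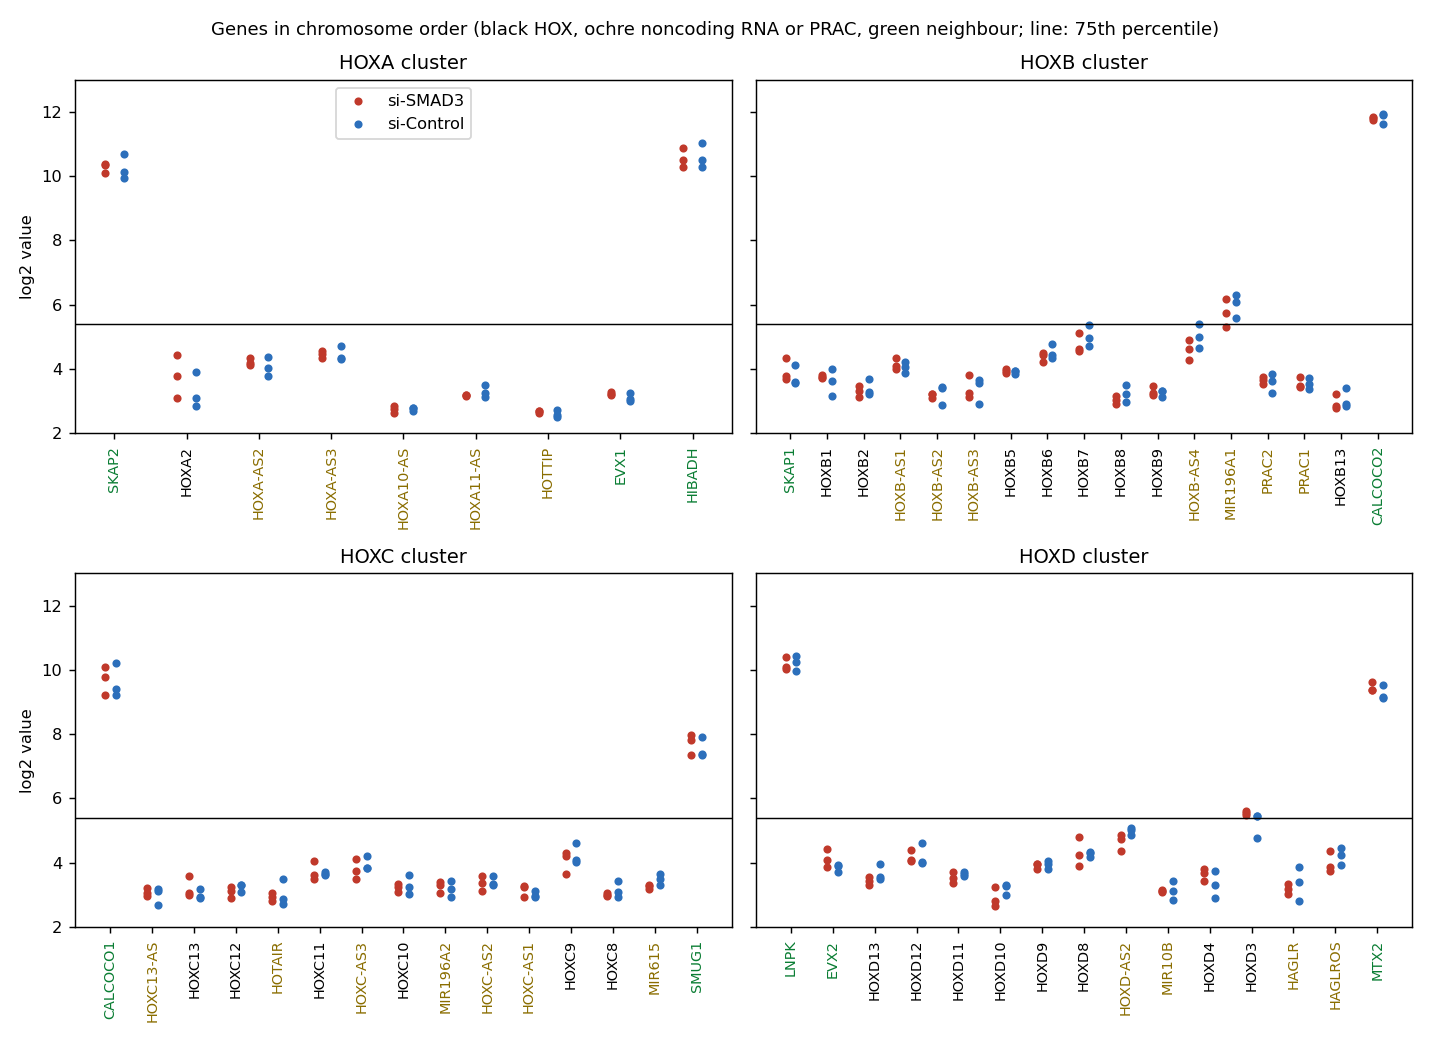
Log2 value on each array for genes in chromosome order along each cluster, si-SMAD3 in red left of si-Control in blue, with HOX genes named in black, noncoding RNA and PRAC genes in ochre and neighbours in green. The line is the 75th percentile of the arrays; HOX genes other than HOXD3 stay below it, while SKAP2, HIBADH, CALCOCO2, CALCOCO1, SMUG1, LNPK and MTX2 are above it on all arrays.

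Some HOX partners lay high within each array. Of 9 listed genes of the TALE class of homeobox genes, whose proteins bind DNA with HOX proteins, 8 were on the array and tested, and PBX2, PBX3, MEIS2 and PKNOX1 lay above the 90th percentile of every array. MEIS1, at a mean of 5.73, was above the 75th percentile on 5 of 6 arrays, and PBX4, MEIS3 and PKNOX2 were lower. None was called by limma (smallest adjusted p = 0.899) or had an unadjusted p under 0.05, with 3 differences above and 5 below 0. PBX3 was at 12.30, 12.28 and 12.59 in si-SMAD3, against 12.69, 12.54 and 13.09 in si-Control. It was lower in each experiment, with a difference of -0.38 (SE 0.21) and groups that overlapped. PKNOX1 differed by -0.29 (SE 0.20), PKNOX2 by 0.23 (SE 0.20) and PBX2 by 0.25 (SE 0.29).

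Chromatin regulators that act on HOX clusters mostly lay above the 75th percentile. Of 15 Polycomb and related genes, 14 lay above the 75th percentile on all arrays, with only CBX7 below, and all 15 were tested. None was called by limma (smallest adjusted p = 0.860), and 3 had an unadjusted p under 0.05, where 5.74% of all tested genes did. The 3 were the core component PHC1, which differed by -0.46 (SE 0.18), its relative PHC3, by -0.42 (SE 0.18), and the PRC2 accessory gene JARID2, by 0.58 (SE 0.23). The histone-binding gene RBBP4, which differed by -0.35 (SE 0.18), was not among them. In total 7 differences were above and 8 below 0, with a median of -0.09.

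Among 20 genes that keep HOX clusters active or respond to retinoic acid, 18 lay above the 75th percentile on all arrays, with RARB and CYP26B1 below, and 19 were tested. None was called by limma, and 3 had an unadjusted p under 0.05 (MLLT3, DOT1L and KMT2B), where 5.74% of all tested genes did. The smallest was that of MLLT3, a reader of acylated histones in the super elongation complex. MLLT3 was at 12.44, 12.17 and 12.56 in si-SMAD3, against 13.30, 13.48 and 13.15 in si-Control, and every si-SMAD3 array was below every si-Control array, as in 5.15% of all genes. The difference was -0.92 (SE 0.20, adjusted p = 0.610 by limma). The H3K79 methyltransferase gene DOT1L differed by 0.57 (SE 0.24) and KMT2B by 0.44 (SE 0.19). PSIP1, which tethers the KMT2A complex to chromatin, differed by -0.42 (SE 0.19) and did not have an unadjusted p under 0.05. In total 10 differences were above and 9 below 0.

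RefSeq promoter windows (250 bases before to 50 after the start, GRCh38.p14) were found for 9 of the 23 HOX genes. Apart from HOXA2 and HOXB1 all of these were HOXD genes, so the windows describe mainly that cluster. The windows held between 4 and 34 CG dinucleotides, with a median of 23, where the median of all 35116 windows was 14. HOXD8 had 34, HOXD4 had 4, and HOXA2 and HOXB1 had 11 each. The GC content, with a median of 58.0%, was close to that of all windows (58.7%).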

How the data were processed

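Biotin-labelled cDNA from total RNA of 6 samples was measured on Affymetrix whole-transcript arrays, 1 array a sample. The authors deposited log2 values, 1 per probe set and array; the submitters' processing notes name RMA and Affymetrix Expression Console. Software versions and the genome build were not stated, and any step after RMA is unknown. All arrays share a highest value of 19.93, which no HOX gene reached. Scanner files, slides and scan dates were not used here, so background correction and array batch could not be varied.

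Of 138745 probe sets, 36176 carry 1 symbol in the platform's annotation, 1119 carry several and 101450 are not listed. Symbols were updated through RefSeq (GRCh38.p14), and the brightest probe set stood for its gene. The filter on the mean of the 6 arrays (3.93 or more) kept 20590 of 33458 genes. These were tested with limma's moderated test (limma 3.58.1, R 4.3.3), 2-sided, with Benjamini-Hochberg adjustment over all of them and a threshold of 0.05. Differences of members below the filter come from the fit without a filter. The procedure was tested on simulated data with independent noise and no effect of experiment. Only genes above the filter were simulated, so members below it were not covered. The number of arrays limits precision, p-values measure the spread over 3 experiments in 1 cell line, and arrays correlated between 0.986 and 0.992.

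The series' design text gives 3 different times for the replicates, and the replicate number was taken as the time. The deviations from the group means correlated at 0.15, 0.22 and 0.05 between same-numbered arrays, and between -0.18 and 0.06 for other pairs across groups. Alternatives were the replicate block, other filters and marks, other scalings, an intensity trend, the mean of probe sets and leaving out each array.

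The members and gene lists were chosen with earlier results of these data known. By rule the text names SMAD3, every HOX gene and, of each other list, up to 4 tested genes with the smallest p. The cell type markers, the flanking genes, HOTAIR, HOTTIP, the other microRNA genes, and the cofactors and chromatin genes named only for their level were named after their values were seen.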

Additional observations from a re-analysis of the deposited data

How the results depend on the processing

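No tested HOX gene was called and none had an unadjusted p under 0.05 under any of the alternatives: the replicate block, no filter, a filter at the 75th percentile, quantile normalization, median centring, an intensity trend with robust variance, the mean of probe sets, and leaving out each array. Of these, the fit with no filter tested all 23 members, the filter at the 75th percentile 1, and each of the others 6. Members below the filter were therefore not tested with an array left out. The same holds for a fit with no filter and the replicate block together and for one without the 15 genes that hold the same value on all arrays, both chosen after seeing the data. The lowest adjusted p of any HOX gene over all settings was 0.772, for HOXD3 without si-Control replicate 2. With the replicate block the adjusted p of SMAD3 was 0.00591, its difference stayed -4.06, and no call changed. The number of genes called was 1 in most settings, 5 with an intensity trend and robust variance, and 3 with median centring. With the filter at the 75th percentile HOXD3 was the only HOX gene left, so the median difference became 0.32. With the array median as the mark, 4 HOX genes lay above it, 2 in HOXB and 2 in HOXD; leaving out 1 array gave between 0 and 1 above the 75th percentile, with HOXD3 as the 1, in HOXD, when si-Control replicate 1 was left out. Leaving out 1 array turned the sign of 4 tested genes with small differences: HOXB6 ranged from -0.21 to 0.0066, HOXC9 from -0.31 to 0.0096, HOXD8 from -0.21 to 0.25 and HOXD12 from -0.14 to 0.17. Among members below the filter the sign also turned for HOXB1 (-0.06 to 0.36), HOXB2, HOXB5, HOXB9, HOXB13 (-0.25 to 0.07), HOXC10, HOXC11 and HOXD9. Without 1 array the HOXA2 difference ranged from 0.16 to 0.84, HOXB7 from -0.43 to -0.07, HOXB8 from -0.32 to -0.05, HOXD4 from 0.12 to 0.53, HOXD10 from -0.46 to -0.16 and HOXD13 from -0.34 to -0.10. The HOXD3 difference ranged from 0.08 to 0.43, and the mean of its probe sets gave 0.12. The median shift between groups over the tested genes was 0.017.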

Other observations

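A further 3 probe sets in the HOX clusters carry several symbols each, so none of them was given to a gene or counted above. The one in HOXB, which the platform's annotation assigns jointly to a pair of HOXB genes and a microRNA gene, was at 5.81, 4.89 and 5.79 in the si-SMAD3 arrays, against 4.48, 4.54 and 3.98 in the si-Control arrays. It was above the array median on all 6 arrays and above the 75th percentile on 2, those of si-SMAD3 replicates 1 and 3. Every si-SMAD3 value was above every si-Control value, and the difference was 1.33, 0.34 and 1.81 in the 3 experiments. Its mean difference of 1.16 is larger than that of any of the 23 HOX genes, of which the highest was 0.49. Of all 138745 probe sets, 98 (0.0706%) had a difference at least as high. This probe set was singled out after its values were seen, so no test is given. The joint probe set in HOXD was at 4.96, 4.64 and 4.55 in si-SMAD3, against 4.68, 4.75 and 4.76 in si-Control, and the one in HOXC was between 2.65 and 3.09 on all 6 arrays. The HOXD one was above the array median on all 6 arrays, and the HOXC one was below it on all 6.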
